A study of Mus musculus with 24 samples.

Results

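The response of control bone marrow-derived macrophages to lipopolysaccharide (LPS) plus interferon-gamma was measured over all genes, with 6 stimulated against 6 unstimulated libraries out of 24 libraries in the series. The 12 libraries were chosen by their titles, as all those labelled control. They came from 6 male C57Bl/6 mice described as untreated, non-diabetic wild type, and each mouse gave 1 library in each state, so that libraries with the same mouse number share an animal, and the test below compares group means without pairing them. No source used here gives the age of the mice. Marrow cells were grown for 7 days in medium with 5 mmol/L glucose and 20% L929 cell-conditioned medium, a source of the macrophage growth factor CSF-1, and the adherent cells were kept. Stimulated cultures received 100 ng/mL LPS and 10 ng/mL murine interferon-gamma for 6 h, and the other cultures received neither. The other 12 libraries are the same 2 states of macrophages from mice made diabetic with streptozotocin. They enter here through the choice of genes to test, the median-of-ratios and quantile scalings, the shared estimate of the spread and 1 comparison at the end. A single time and dose was sequenced, with 1 culture per mouse and state, and both agents were always given together, so their separate effects cannot be told apart.

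LPS, a component of the outer membrane of Gram-negative bacteria, is recognised by TLR4 with MD-2 and CD14, and the signal runs through the adaptors MyD88 and TRIF to NF-kB, MAP kinases and interferon regulatory factors. Interferon-gamma binds the receptor chains IFNGR1 and IFNGR2, activates the kinases JAK1 and JAK2, and leads to STAT dimers on gamma-activated sites (GAS), while type I interferon made after TLR4 stimulation drives genes with an interferon-stimulated response element (ISRE). The combination is the classical way to activate macrophages, which then make inflammatory cytokines, nitric oxide and itaconate, show antigen to T cells and stop dividing.

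Control libraries held 20098813 to 26572456 reads without and 22233139 to 34130060 reads with stimulation. Values are CPM, reads scaled to a common library total, with the authors' own scaling factor for each library, and 3 reads amount to at most 0.175 CPM. These factors were 1.23 to 1.28 without and 0.726 to 0.785 with stimulation, so the scaling itself differs between the states. The same share of reads thus gives a higher CPM with stimulation. The 100 most read genes took 23.8 to 25.4% of reads without and 30.3 to 31.8% with stimulation, and genes of the mitochondrial genome took 0.786 to 0.944% and 0.511 to 0.622%. A gene was said to rise or fall where limma's test against a 2-fold change (log2 of 1, treat) gave a Benjamini-Hochberg adjusted p under 0.05. Fold changes are on the log2(CPM + 1) scale, which understates the change of low genes. Levels are medians over 6 libraries, with the lowest and the highest in brackets. A call is marked scaling-dependent where it was lost under at least 1 of 3 other scalings of the libraries (median-of-ratios, total reads, quantiles). The unstimulated library of mouse 3 stood apart in interferon-stimulated genes, as described with them, and without mouse 3 the counts of rises and falls were 1700 and 2600. In these bulk samples, fewer cells of a kind and less RNA per cell cannot be told apart.

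Of 11710 genes tested, 1717 rose (14.7%) and 2639 fell (22.5%), and these shares are the background against which the gene groups below are read. Against no change rather than a 2-fold change, 10688 genes passed (91.3%), 4081 up (34.9%) and 6607 down (56.4%). Rises made up 39.4% of calls, against 53.3% under median-of-ratios scaling, 18.4% under scaling by total reads and 47.4% under quantile normalization, and 1076 rises (9.19%) and 1536 falls (13.1%) were called under all 4 scalings. The median log2 change over all tested genes was -0.30, and median-of-ratios, quantile and total-read scaling shifted it by 0.30, 0.19 and -0.62. Among the 4356 called genes (37.2%), the 6 stimulated libraries all lay beyond the 6 unstimulated ones in 4354, the exceptions being Dcstamp and Mamdc2, and all 6 mice moved the same way in 4356. Over all tested genes the groups did not overlap in 81.2%. Within the 2 sets of 12 neighbouring columns that the deposited table shows, with 3 control mice each, 1668 and 1638 genes rose and 2493 and 2428 fell.

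Rises and falls of log2 2 or more were about equally many, at 912 and 968, and beyond that rises were more frequent. A log2 change of 4 or more was seen in 239 rising and 69 falling genes, and of 6 or more in 74 rising genes, while the largest fall was -5.93. Genes that rose took 12.8% (12.6 to 13.9) of all reads without stimulation and 52.2% (52 to 54.1) with it. Genes that fell took 18.1% (17.7 to 18.7) and 3.0% (2.71 to 3.14). The shift of reads toward the rising genes is a description that follows from how these genes were chosen. The response was similar from mouse to mouse, and each mouse's log2 changes correlated at r = 0.991 to 0.994 across genes with the mean of the other mice (genes are not independent replicates).

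**Figure D1:**
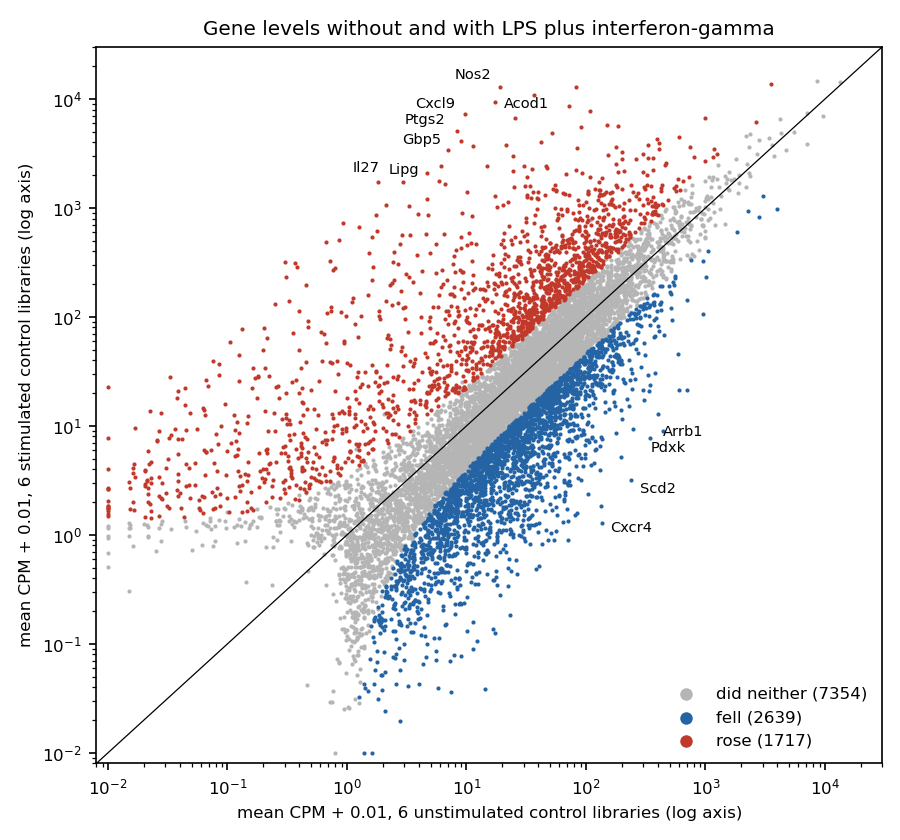
Mean CPM, with 0.01 added for the plot, of each of 11710 tested genes in the 6 stimulated (vertical, log axis) against the 6 unstimulated control libraries (horizontal, log axis). Points mark genes that rose (1717), fell (2639) or did neither, the diagonal is equality, and labelled genes are some of the largest changes: rises reach far above the diagonal, up to a log2 change of 9.49, and falls reach -5.93.

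The promoters of some of the most changed genes are shown for the motifs that the pathways' factors bind. In the 250 bases before the RefSeq start (build GRCm38.p6), both strands were searched for ISRE (GAAANNGAAA), GAS (TTCNNNGAA), kB (GGGNNNTTCC, bound by NF-kB) and the Fos-Jun site AP-1 (TGANTCA). The cell cycle site E2F (TTTNNCGC), the sterol element SRE (TCACNCCAC) and the core promoter box of the letters TATAAA, called TATA here, were searched as well, with overlapping matches counted. A promoter was found for 9037 tested genes, and for 8284 of them the RefSeq start lay within 1000 bases of the start in the deposited table. The 3 rises and the 1 fall shown had the most matches among the 15 largest changes in each direction, of which 10 rises and 11 falls had a promoter entry, and capitals mark the matches.
Gbp5: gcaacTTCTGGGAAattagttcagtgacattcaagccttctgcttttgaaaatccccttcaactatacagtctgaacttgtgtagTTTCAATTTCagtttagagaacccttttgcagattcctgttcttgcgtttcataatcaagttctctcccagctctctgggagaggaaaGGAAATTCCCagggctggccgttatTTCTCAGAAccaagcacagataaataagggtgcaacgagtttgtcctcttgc
Cxcl10: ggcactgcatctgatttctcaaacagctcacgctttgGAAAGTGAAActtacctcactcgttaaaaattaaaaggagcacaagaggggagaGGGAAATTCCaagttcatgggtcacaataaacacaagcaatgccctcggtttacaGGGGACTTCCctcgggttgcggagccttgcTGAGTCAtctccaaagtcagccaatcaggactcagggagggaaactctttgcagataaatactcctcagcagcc
Serpina3g: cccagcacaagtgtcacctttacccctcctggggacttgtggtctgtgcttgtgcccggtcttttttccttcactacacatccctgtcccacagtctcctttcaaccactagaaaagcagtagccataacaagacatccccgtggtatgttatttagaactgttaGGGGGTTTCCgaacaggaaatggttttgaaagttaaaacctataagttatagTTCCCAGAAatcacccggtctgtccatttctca
Cxcr4: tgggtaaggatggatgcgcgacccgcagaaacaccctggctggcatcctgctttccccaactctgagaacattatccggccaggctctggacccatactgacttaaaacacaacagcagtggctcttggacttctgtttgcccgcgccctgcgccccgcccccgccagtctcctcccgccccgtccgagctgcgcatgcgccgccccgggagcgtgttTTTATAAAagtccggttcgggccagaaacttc
The Gbp5 promoter (chr3:142496684-142496933, plus strand) has an ISRE match 165 bases, a kB match 77 bases and GAS matches 245 and 52 bases before the start, though this RefSeq start lies 2956 bases from the start in the table. The Cxcl10 promoter (chr5:92348890-92349139, minus strand) has an ISRE match at 213 bases, kB matches at 159 and 104 bases and an AP-1 match at 74 bases. In Serpina3g (chr12:104235897-104236146, plus strand) a GAS match stands 33 and a kB match 85 bases before the start. Cxcr4, the largest fall (chr1:128592300-128592549, minus strand), has only overlapping TATA matches. A match is a description of the letters and not of a bound site.

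Gbp5 encodes a guanylate-binding protein that promotes inflammasome activation, and its level was 5.84 CPM (5.48 to 9.85) without and 3408 CPM (3239.9 to 3649) with stimulation (log2 fold change 8.77 ± 0.11 SE, adjusted p = 8.4e-27). Cxcl10, a chemokine for T cells that carry CXCR3, stood at 7.67 CPM (6.76 to 12.6) without and 4192 CPM (3584 to 4711) with stimulation (log2 fold change 8.72 ± 0.11 SE, adjusted p = 2.4e-26). Serpina3g, an inhibitor of cathepsins in haematopoietic cells, was at 0.866 CPM (0.403 to 1.58) without and 729 CPM (645 to 817) with stimulation (log2 fold change 8.60 ± 0.10 SE, adjusted p = 2.0e-28). In all 3 genes the lowest stimulated library lay far above the highest unstimulated one. Cxcr4, the receptor for CXCL12 that holds leukocytes in the marrow, stood at 137 CPM (129 to 146) without and 1.3 CPM (0.899 to 1.67) with stimulation (log2 fold change -5.93 ± 0.12 SE, adjusted p = 2.5e-22), and every stimulated library was below every unstimulated one.

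Motif shares differed between the classes of genes. ISRE matches stood in 3.05% of all promoters, in 7.94% of the 1297 promoters of rising genes, in 15.9% of the 182 of genes that rose by log2 of 4 or more and in 1.85% of the 2048 of falling genes. TATA matches stood in 6.11% of all promoters and in 20.3% of those that rose by log2 of 4 or more, and AP-1 matches in 4.23% and 15.9%. CpG pairs were fewer in the promoters with the largest rises, with a median of 6 against 16 over all promoters and 17 over falling genes. By gene group, ISRE matches stood in 83.3% of 12 promoters of guanylate-binding and immunity-related GTPases and 32.5% of 40 promoters of antiviral interferon-stimulated genes, and GAS matches in 50% of the GTPase promoters against 5.98% of all. A kB match stood in 50% of 8 promoters of NF-kB and IkB genes against 5.41% of all, and an E2F match in 27.6% of 29 promoters of DNA replication genes against 7.57%. These shares are descriptions without a test.

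**Figure D2:**
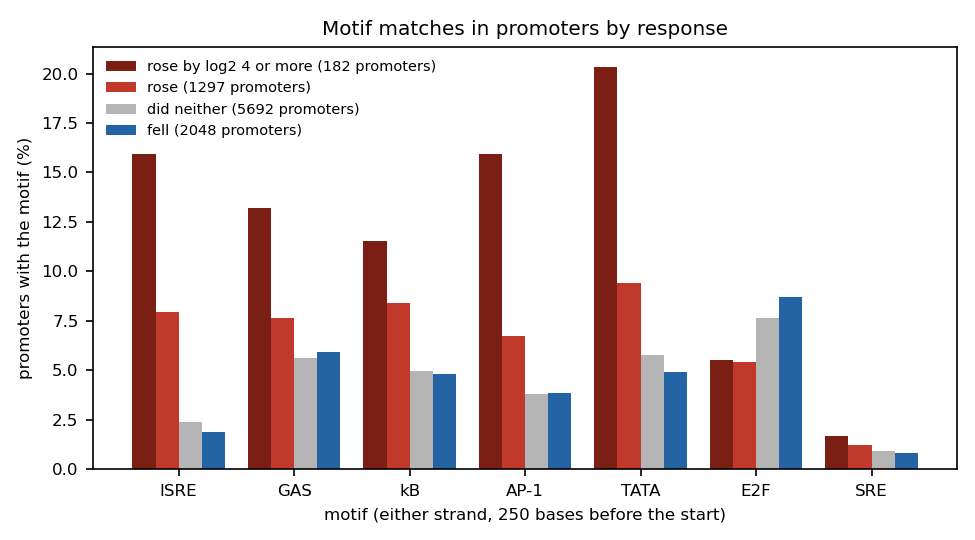
Percent of promoters (250 bases before the RefSeq start) that hold each motif on either strand, for genes that rose by log2 of 4 or more (182 promoters), all genes that rose (1297), genes that did neither (5692) and genes that fell (2048). Every motif but E2F has its highest bar in the genes with the largest rises, most clearly ISRE (15.9%), AP-1 (15.9%) and TATA (20.3%), and the E2F bar is highest in the genes that fell.

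The components that receive the 2 signals changed unequally. Of 19 genes of the LPS receptor, its adaptors and kinases, 7 rose and 12 did not pass, and 4 of the rises held under every scaling. The largest were Map3k8 (3.44 ± 0.05 log2 ± SE), the kinase upstream of MEK in this pathway, Myd88 (2.79 ± 0.04), the adaptor of most Toll-like receptors, and Ikbke (2.67 ± 0.05), which phosphorylates interferon regulatory factors. Other pattern receptors rose in 14 of 21 genes, 12 of them under every scaling. Clec4e, which codes for the mycobacterial glycolipid receptor Mincle, stood at 32.2 CPM (29.3 to 34.6) without and 1925 CPM (1678 to 2142) with stimulation (log2 fold change 5.86 ± 0.05 SE, adjusted p = 2.7e-33). The cytosolic RNA sensor Ifih1 (4.91 ± 0.08), the Z-nucleic acid sensor Zbp1 (4.71 ± 0.14), the peptidoglycan sensor Nod1 (4.33 ± 0.06) and the double-stranded RNA receptor Tlr3 (4.12 ± 0.11) rose as well.

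Against these, Tlr13, the receptor for bacterial ribosomal RNA in mice, fell from 584 CPM (535 to 660) without to 44.3 CPM (41.4 to 51.8) with stimulation (log2 fold change -3.64 ± 0.08 SE, adjusted p = 2.6e-21), with no overlap of the groups. The flagellin receptor Tlr5 fell by less (-1.35 ± 0.10, scaling-dependent). In the interferon receptor and JAK-STAT group, 11 of 15 genes rose, 6 under every scaling, and 1 fell. The fall was Ifngr1, the chain that binds interferon-gamma, at 169 CPM (160.1 to 178) without and 32.4 CPM (28.5 to 36.2) with stimulation (log2 fold change -2.36 ± 0.04 SE, adjusted p = 6.9e-22). Its partner Ifngr2, named because it is the other chain, stood at 127 CPM (124 to 136) without and 419 CPM (377 to 433) with stimulation (log2 fold change 1.67 ± 0.04 SE, adjusted p = 1.4e-15, scaling-dependent). The 2 chains of 1 receptor thus moved in opposite directions, and the rise of Ifngr2 was called under median-of-ratios but not under total-read or quantile scaling. Jak2, the kinase attached to IFNGR2, rose from 34.5 CPM (32.1 to 37.4) without to 1232 CPM (1144 to 1283) with stimulation (log2 fold change 5.11 ± 0.04 SE, adjusted p = 1.6e-33), and Stat3 (3.73 ± 0.05), Stat5a (3.22 ± 0.05) and Stat2 (2.91 ± 0.08) rose too.

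Transcription factors of the early response showed the same mixture. Of 11 NF-kB and IkB genes, 9 rose, all 9 under every scaling, led by Nfkbiz (4.50 ± 0.06), a nuclear IkB protein needed for a part of the secondary LPS genes, and Nfkbie (4.11 ± 0.06), a cytoplasmic inhibitor. Interferon regulatory factors rose in 4 of 8, with Irf8 at 181 CPM (159 to 192) without and 3602 CPM (3163 to 4086) with stimulation (log2 fold change 4.34 ± 0.06 SE, adjusted p = 2.9e-27), Irf1 at 3.75 ± 0.05 and Irf7 at 3.17 ± 0.19. Irf4, linked to alternative activation, had a log2 change of -1.17 and did not pass the test, though it did with a pseudocount of 0.25 (-1.53, adjusted p = 0.0041). Among 21 AP-1, ATF, EGR and C/EBP genes, 8 rose and 4 fell.

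Batf2, a bZIP partner of IRF1 in interferon-gamma-treated macrophages, stood at 4.89 CPM (4.08 to 5.79) without and 383 CPM (343 to 450.3) with stimulation (log2 fold change 6.04 ± 0.07 SE, adjusted p = 2.5e-29), and Batf rose by 5.18 ± 0.09. Cebpb, which directs inflammatory and granulopoietic genes, rose from 17.3 CPM (16.1 to 19.2) without to 169 CPM (134 to 183) with stimulation (log2 fold change 3.13 ± 0.07 SE, adjusted p = 4.3e-22). Cebpa, the myeloid differentiation factor of the same family, fell from 71 CPM (63.6 to 76.3) without to 1.24 CPM (0.70 to 2.08) with stimulation (log2 fold change -4.97 ± 0.12 SE, adjusted p = 2.6e-20), so the 2 family members moved apart in all 6 mice. The immediate early genes Fos (-1.51 ± 0.12, scaling-dependent), Egr2 (-2.04 ± 0.23, scaling-dependent) and Egr3 (-2.10 ± 0.13) were lower at 6 h. Other immediate early genes of the same list rose or did not pass the test, so the class did not move as one. Of 30 other regulators, 17 rose and 8 fell, 11 and 3 of them under every scaling. Mxd1, a repressor that competes with MYC for MAX, rose by 5.74 ± 0.07, while Myc was lower (-1.60 ± 0.08, scaling-dependent). Arid5a, which stabilises Il6 messenger RNA, rose by 5.24 ± 0.06, and Hif1a, the hypoxia factor that also controls glycolysis, rose by 3.17 ± 0.04. Tfeb, a master regulator of lysosomal genes, fell by 2.75 on the log2 scale.

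**Figure D3:**
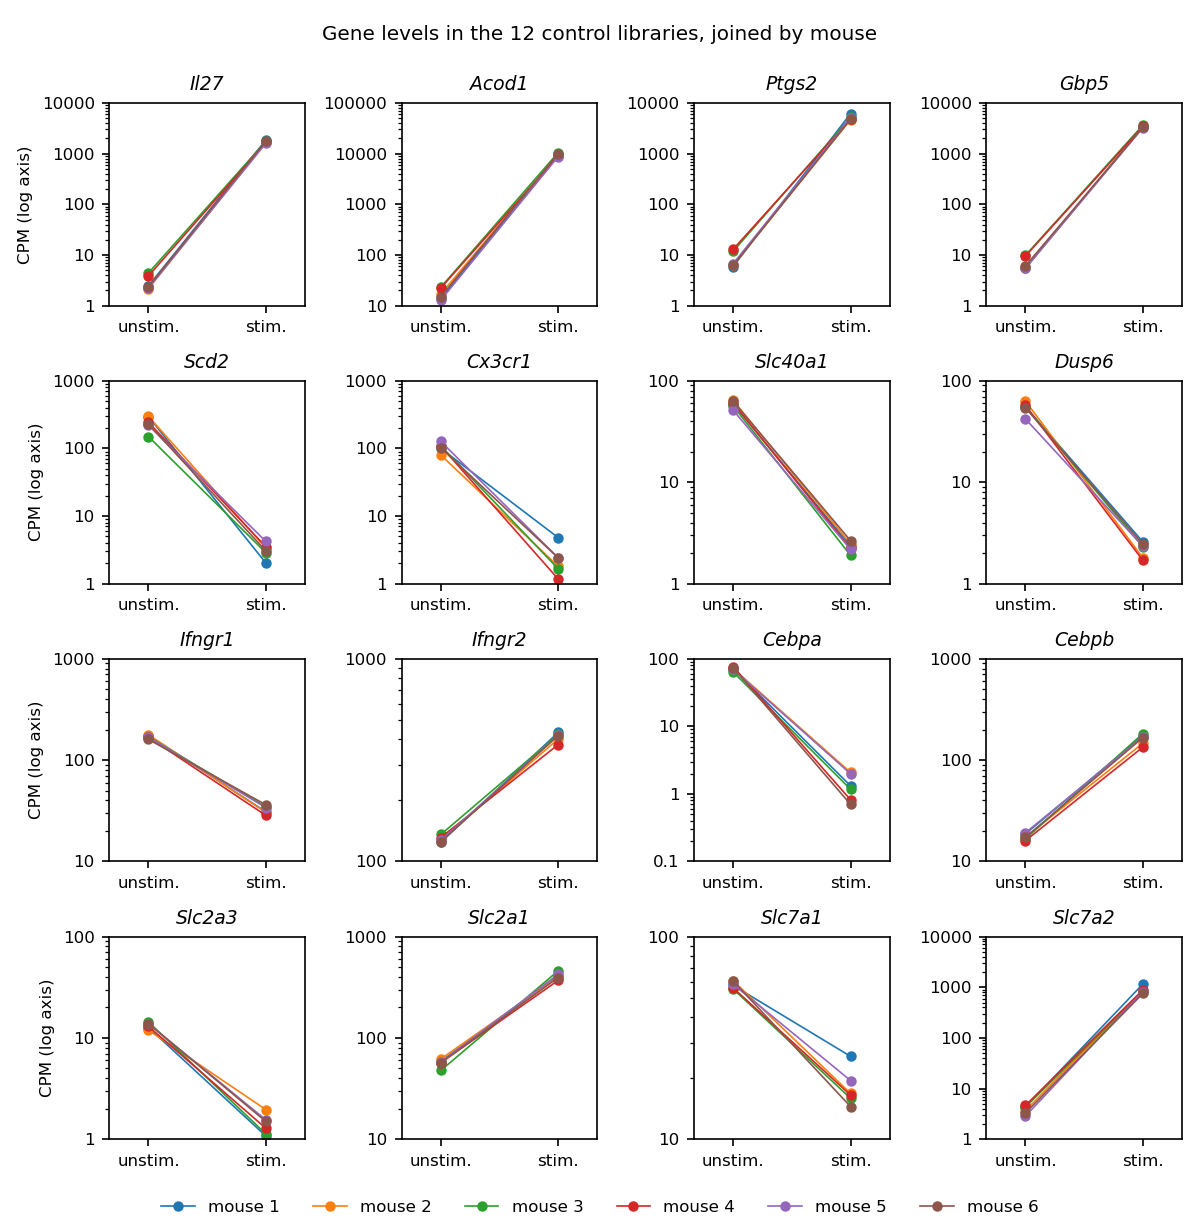
CPM (log axis) of 16 genes in each control library, unstimulated on the left and stimulated on the right of each panel, with a line joining the 2 libraries of each of 6 mice. The upper rows hold genes with large rises and falls, and the lower rows hold pairs of related genes that moved in opposite directions, such as Ifngr1 and Ifngr2 or Cebpa and Cebpb; the pairs were chosen after their values were seen.

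Of 29 cytokine genes, 22 rose and 3 fell, with 21 rises but none of the falls called under every scaling. Il27, the subunit that gives interleukin-27 its name, stood at 2.42 CPM (2.17 to 4.43) without and 1731 CPM (1602 to 1858) with stimulation (log2 fold change 8.81 ± 0.11 SE, adjusted p = 2.3e-26). Il12b, the shared subunit of interleukins 12 and 23, stood at 1.32 CPM (1.1 to 3.1) without and 816 CPM (608 to 1214) with stimulation (log2 fold change 8.31 ± 0.20 SE, adjusted p = 3.7e-19). In both genes the stimulated libraries lay above every unstimulated one. Il1a (8.20 ± 0.08) and Il6 (8.11 ± 0.12) rose by similar log2 sizes, and Il1b was at 5.52 CPM (4.54 to 7.44) without and 1677 CPM (1387 to 2353) with stimulation (log2 fold change 8.01 ± 0.13 SE, adjusted p = 3.0e-23). The genes lower after stimulation were Vegfa (-1.51 ± 0.14, scaling-dependent), which codes for a vascular growth factor, Pdgfb (-1.38 ± 0.12, scaling-dependent) and Tnfsf14 (-1.28 ± 0.11, scaling-dependent), which codes for LIGHT and whose call was lost without mouse 3 (adjusted p = 0.098) or mouse 6 (adjusted p = 0.086).

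CXC chemokines rose in 8 of 10 and CC chemokines in 10 of 12 genes, 8 and 8 of them under every scaling. Cxcl9, a ligand of CXCR3, had the largest change of all tested genes (9.49 ± 0.17). The CXCR3 ligand Cxcl11 stood at 0.249 CPM (0.201 to 0.575) without and 311 CPM (261 to 420.2) with stimulation (log2 fold change 7.94 ± 0.08 SE, adjusted p = 3.7e-32), and the neutrophil attractant Cxcl2 rose by 4.55 ± 0.11. Among CC chemokines, Ccl12 (6.77 ± 0.11) and Ccl7 (5.32 ± 0.19) attract monocytes, and Ccl5 (6.02 ± 0.18) attracts T cells. Ccl22, which attracts regulatory T cells and is usually listed with alternative activation, rose from 0.652 CPM (0.362 to 0.92) without to 90.04 CPM (78.3 to 164) with stimulation (log2 fold change 5.97 ± 0.19 SE, adjusted p = 5.2e-17).

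Receptors for such signals moved both ways. Of 32 cytokine receptor genes, 19 rose and 5 fell, 12 and 4 under every scaling. Il4ra, the chain through which interleukins 4 and 13 signal, rose from 82.8 CPM (77 to 94.4) without to 3590.4 CPM (3375 to 3801) with stimulation (log2 fold change 5.40 ± 0.04 SE, adjusted p = 1.5e-33), and its partner for interleukin-13, Il13ra1, rose by 4.31 ± 0.09. The interleukin-15 receptor chain Il15ra (5.03 ± 0.08), which presents the cytokine to neighbouring cells, and Il12rb1 (4.77 ± 0.10) rose as well. Both chains of the interleukin-6 receptor fell, Il6ra by 1.95 and Il6st by 1.91 on the log2 scale, while Il6 itself rose. Tnfrsf21, a death receptor, fell by 3.16. Of 9 chemokine receptors, 4 rose and 2 fell, and Ccrl2, a non-signalling chemerin receptor, rose by 6.29 ± 0.07. Cx3cr1, the fractalkine receptor of patrolling monocytes and tissue macrophages, fell from 105 CPM (79.9 to 127) without to 2.1 CPM (1.17 to 4.79) with stimulation (log2 fold change -5.03 ± 0.21 SE, adjusted p = 5.1e-14). Its stimulated libraries all lay below the unstimulated ones.

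Antiviral interferon-stimulated genes rose in 46 of 48, 40 of them under every scaling, with a median log2 change of 3.07 against -0.30 over all tested genes. They took 0.72% of all reads without (0.673 to 1.03) and 5.69% with stimulation (5.21 to 6.2). Rsad2, which codes for viperin, an enzyme that makes a chain-terminating nucleotide, was at 61.7 CPM (46.7 to 137) without and 8465 CPM (7037 to 10931) with stimulation (log2 fold change 6.96 ± 0.18 SE, adjusted p = 1.6e-18). Cmpk2, its neighbour and a mitochondrial nucleotide kinase, rose by 6.55 ± 0.13. Ch25h, whose product 25-hydroxycholesterol blocks viral entry and restrains sterol synthesis, was at 3.31 CPM (2.23 to 4.91) without and 583 CPM (412 to 684) with stimulation (log2 fold change 7.04 ± 0.13 SE, adjusted p = 3.0e-22). Further members with large rises were Oasl1 (6.50 ± 0.17), which restrains Irf7 translation, the dynamin-like Mx1 (6.36 ± 0.16) and Ifit2 (6.22 ± 0.18), which binds foreign RNA. Reads of near-identical family members, as in the Ifit, Oas, Slfn, Gbp and H2 families, could be split between copies by the authors' counting, so single values in these families are uncertain.

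Guanylate-binding and immunity-related GTPases, which attack vacuoles of intracellular microbes, rose in 19 of 20 genes, 18 under every scaling, with a median log2 change of 4.90. Together they took 0.0469% of all reads without (0.0426 to 0.0678) and 1.51% with stimulation (1.45 to 1.57). Gbp2 stood at 22.8 CPM (20.9 to 34.4) without and 6689 CPM (6495 to 7194) with stimulation (log2 fold change 8.03 ± 0.08 SE, adjusted p = 1.8e-29), and Gbp4 (7.83 ± 0.11) and Gbp3 (7.00 ± 0.07) rose by similar sizes. The immunity-related GTPase Iigp1 was at 3.47 CPM (2.3 to 10.5) without and 1236 CPM (1001 to 1404) with stimulation (log2 fold change 7.87 ± 0.19 SE, adjusted p = 3.0e-19). No library of either state overlapped the other state in these 4 genes.

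Several of these families stand side by side on a chromosome, and runs of neighbouring tested genes with the same call were counted. There were 8 runs of at least 6 rising genes, with 67 genes, and 6 such runs of falling genes, with 37. The longest had 16 genes, in the interferon-inducible Ifi200 cluster on chromosome 1, which includes the DNA sensor Aim2, and its Ifi205 was at 3.49 CPM (2.97 to 9.12) without and 2133 CPM (1770.3 to 2368) with stimulation. Genes of the runs were chosen for their position after their values were seen. A run of 10 genes on chr11:48861968-49135387 (build GRCm38, as for the spans that follow) holds Irgm1, Tgtp1, Tgtp2 and Ifi47, and Irgm1 was at 112 CPM (98.6 to 164) without and 1527 CPM (1356 to 1646) with stimulation. A run of 8 on chr1:84992690-85778643 holds Sp110, Sp140 and Sp100, which code for nuclear body proteins, and a run of 7 on chr14:59244441-59585764 holds the Phf11 genes beside Setdb2. Runs of 6 were the Ifit genes on chr19:34550694-34650009, a Gbp cluster on chr5:105014150-105346472 and the Trim12c and Trim30 genes on chr7:104338754-104507849. Neighbouring genes of a family share sequence, so their calls are not independent, and the spans were taken from the deposited gene positions.

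The interferon-stimulated genes also differed between mice. Before stimulation, the mean log2 level of the 48 genes was 6.60 in mouse 3 and 5.76 to 6.03 in the other 5. After stimulation it was 9.58 to 9.88 over all 6, with mouse 3 at 9.88. The rise was 3.28 in mouse 3 and 3.72 to 3.84 in the others. Mouse 3 had the highest unstimulated value in 46 of the 48 genes, against 25.2% of all tested genes, and the highest stimulated value in 31, against 19.5%. The median SD of the 48 genes on the log2 scale was 0.257 without and 0.118 with stimulation, while over all tested genes it was 0.079 and 0.122. The SD was larger without stimulation in 44 of the 48 genes, against 25.2% of all. Without mouse 3, 47 of the 48 genes rose.

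**Figure D4:**
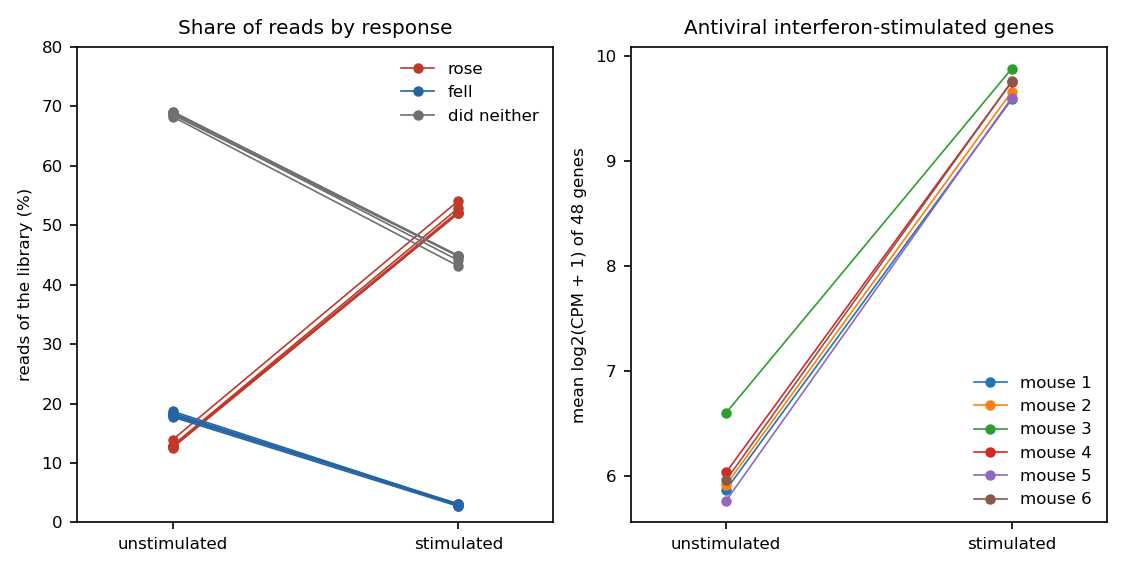
Left, percent of all reads in each of the 12 control libraries from genes that rose, fell or did neither, with a line joining the 2 libraries of each mouse. Right, mean log2(CPM + 1) of the 48 tested antiviral interferon-stimulated genes in each library, again joined by mouse: mouse 3 starts at 6.60 and the other 5 mice between 5.76 and 6.03, and after stimulation all 6 lie between 9.58 and 9.88.

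Genes for antigen presentation rose mainly on the class I side. MHC class I and antigen-processing genes rose in 20 of 25, 16 under every scaling. Tap1, a chain of the peptide transporter, rose by 3.79 ± 0.07, and Nlrc5, the transactivator of class I genes, by 3.60 ± 0.06. Class II genes differed, with 2 rises and 1 fall among 12 and no call that held under every scaling. Ciita, the class II transactivator, stood at 7.22 CPM (3.67 to 8.21) without and 26.8 CPM (21.3 to 39) with stimulation (log2 fold change 1.94 ± 0.17 SE, adjusted p = 2.4e-05, scaling-dependent). H2-Ab1, a class II beta chain, was at 62.4 CPM (43 to 69.9) without and 161 CPM (145 to 197) with stimulation (log2 fold change 1.49 ± 0.16 SE, adjusted p = 0.0072, scaling-dependent), and H2-DMa had a change of 0.99 ± 0.10 without passing.

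Costimulatory and checkpoint genes rose in 19 of 23 and fell in 2, 14 and 1 of them under every scaling. Cd40, through which T cells signal to macrophages, was at 11.1 CPM (8.73 to 15) without and 3630.1 CPM (3522 to 4057) with stimulation (log2 fold change 8.24 ± 0.08 SE, adjusted p = 5.4e-30). Cd274, which codes for the checkpoint ligand PD-L1, was at 42.9 CPM (36.8 to 47.7) without and 4081 CPM (3796 to 4253) with stimulation (log2 fold change 6.57 ± 0.06 SE, adjusted p = 3.7e-32), and Pdcd1lg2, its relative PD-L2, rose by 3.35 ± 0.09. Cd86, a ligand of CD28, rose by 6.12 ± 0.10. Stimulating and restraining ligands thus rose together. Cd69 (8.42 ± 0.10) and Slamf1 (7.71 ± 0.11), a receptor for bacteria and for itself, had low unstimulated levels with medians of 1.86 and 0.389 CPM. Havcr2, which codes for TIM-3, fell by 2.00, and Vsir, which codes for VISTA, was lower (-1.33 ± 0.05, scaling-dependent).

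Feedback inhibitors rose in 20 of 27 genes and fell in 4, 17 and 3 of them under every scaling. Socs1, the inhibitor of JAK kinases downstream of interferon-gamma, was at 0.652 CPM (0.454 to 1.05) without and 122 CPM (98.9 to 149) with stimulation (log2 fold change 6.17 ± 0.12 SE, adjusted p = 7.4e-23). Il1rn, the antagonist of interleukin-1, was at 83.4 CPM (69.5 to 90.5) without and 12681 CPM (12297 to 13493) with stimulation (log2 fold change 7.27 ± 0.08 SE, adjusted p = 2.4e-30) and was among the 10 most read genes after stimulation. Tnfaip3, which codes for the ubiquitin-editing enzyme A20, rose by 5.98 ± 0.07. Most MAP kinase phosphatases of the list rose, Dusp2 by the most (6.95 ± 0.08), and only Dusp6 and Dusp4 fell. Dusp6, specific for ERK, fell from 55.3 CPM (42.1 to 63) without to 2.32 CPM (1.69 to 2.58) with stimulation (log2 fold change -4.12 ± 0.08 SE, adjusted p = 1.9e-24), and Dusp4 fell by 2.94. Socs5 (-1.94 ± 0.06) and Sigirr (-1.51 ± 0.11, scaling-dependent), a decoy-like receptor of the interleukin-1 family, were lower. Of 18 genes of RNA decay and editing, 7 rose and 2 fell, 5 and 1 of them under every scaling. Zfp36 (3.51 ± 0.05) and Zc3h12a (3.50 ± 0.04), which destabilise cytokine messages, rose, and the Zfp36 relatives Zfp36l1 (-2.18 ± 0.07) and Zfp36l2 (-1.46 ± 0.11, scaling-dependent) were lower.

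Small-molecule pathways of activated macrophages held some of the largest changes. Acod1, which makes itaconate from aconitate, was at 16 CPM (13 to 23.1) without and 9234 CPM (8764 to 10528) with stimulation (log2 fold change 9.04 ± 0.10 SE, adjusted p = 1.3e-28). Yet of 26 genes of itaconate synthesis and the TCA cycle, 2 rose and 3 fell, and 12 fell under total-read and 4 under quantile scaling. The other rise was the pyruvate dehydrogenase kinase Pdk3 (2.28 ± 0.05), against a fall of Pdk2 (-2.11 ± 0.08). Idh1, the cytosolic isocitrate dehydrogenase that makes NADPH, fell from 144 CPM (115 to 156) without to 21.5 CPM (19.9 to 22.8) with stimulation (log2 fold change -2.66 ± 0.07 SE, adjusted p = 1.6e-19), and Aco1, the cytosolic aconitase, fell by 1.60. The 25 nuclear genes of oxidative phosphorylation gave 0 calls with limma's treat test, 0 at an unadjusted p of that test under 0.05 and 1 with limma voom on the recovered reads. Against no change, 15 were higher and 5 lower. Their median was 0.14, and it was 0.47 under median-of-ratios, -0.56 under total-read and -0.02 under quantile scaling, so its sign depended on the scaling.

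Genes for nitric oxide, arginine and tryptophan rose in 10 and fell in 2 of 15. Nos2, which codes for the inducible synthase that makes nitric oxide from arginine, was at 15 CPM (12.8 to 29.6) without and 12791 CPM (11929 to 14748) with stimulation (9.40 ± 0.16 log2 ± SE). Slc7a2, the inducible cationic amino acid carrier that supplies arginine, was at 4.03 CPM (2.88 to 4.68) without and 835 CPM (754 to 1158) with stimulation (log2 fold change 7.50 ± 0.12 SE, adjusted p = 3.6e-23), while Slc7a1, the constitutive carrier of the same family, fell from 57.8 CPM (55.2 to 60.6) without to 16.7 CPM (14.5 to 25.7) with stimulation (log2 fold change -1.64 ± 0.11 SE, adjusted p = 8.2e-06). Ass1, which rebuilds arginine from citrulline, rose by 3.80 ± 0.09, and Kynu, an enzyme of tryptophan breakdown, by 4.03 ± 0.10. Of 17 amino acid carriers, Slc7a2 among them, 6 rose and 7 fell. Slc43a2, a carrier of large neutral amino acids and methionine, fell from 599 CPM (582 to 615) without to 21.6 CPM (19.3 to 24.3) with stimulation (log2 fold change -4.75 ± 0.05 SE, adjusted p = 6.0e-31). Slc7a11, the cystine exchanger, rose by 3.07 ± 0.20, and Slc15a3, a lysosomal peptide carrier, by 3.42 ± 0.07.

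In prostaglandin and leukotriene synthesis, 4 genes rose and 5 fell of 18. Ptgs2, the inducible cyclooxygenase, was at 6.56 CPM (5.93 to 13) without and 4956 CPM (4681 to 6139) with stimulation (log2 fold change 9.15 ± 0.15 SE, adjusted p = 3.7e-23), and Ptges, which makes prostaglandin E2 from its product, was at 1.52 CPM (1.13 to 1.88) without and 381 CPM (309 to 480.1) with stimulation (log2 fold change 7.26 ± 0.09 SE, adjusted p = 2.4e-27). Ptgs1, the constitutive cyclooxygenase, was at 15.4 CPM (13.2 to 23.2) without and 3.45 CPM (2.8 to 4.59) with stimulation (log2 fold change -1.93 ± 0.14 SE, adjusted p = 1.6e-06, scaling-dependent). Glycolysis and glucose transport rose in 12 and fell in 3 of 22 genes, 8 and 2 under every scaling. Slc2a1, the main glucose carrier GLUT1, rose from 57.5 CPM (47.8 to 62.1) without to 407 CPM (370 to 459.8) with stimulation (log2 fold change 2.83 ± 0.06 SE, adjusted p = 7.3e-21) and Slc2a3, the high-affinity carrier GLUT3, fell from 13.4 CPM (11.9 to 14.4) without to 1.39 CPM (1.08 to 1.97) with stimulation (log2 fold change -2.57 ± 0.09 SE, adjusted p = 3.1e-16). Slc2a6, a lysosomal hexose carrier, rose by 5.24 ± 0.07. Of the bifunctional enzymes that set fructose 2,6-bisphosphate, Pfkfb4 fell by 1.84.

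Many genes of cholesterol and fatty acid synthesis fell. Of 23 cholesterol genes, 14 fell, 10 of them under every scaling, and 9 did not pass. Stard4, a sterol carrier, was at 66.8 CPM (57.9 to 72.1) without and 3.07 CPM (2.06 to 3.89) with stimulation (log2 fold change -4.06 ± 0.11 SE, adjusted p = 2.8e-19), and the pathway enzymes Mvd (-3.16 ± 0.12) and Dhcr7 (-3.08 ± 0.07) fell. Fatty acid and lipid genes fell in 10 and rose in 4 of 26, 8 and 3 of them under every scaling. Scd2, a desaturase that makes monounsaturated fatty acids, fell from 236 CPM (149 to 297) without to 3.21 CPM (2.02 to 4.2) with stimulation (log2 fold change -5.83 ± 0.20 SE, adjusted p = 3.5e-16), the largest fall after Cxcr4. Fatty acid synthase (Fasn) stood at 210 CPM (153 to 216) without and 10.8 CPM (8.0 to 15.7) with stimulation (log2 fold change -4.04 ± 0.12 SE, adjusted p = 3.2e-17). In both genes the groups did not overlap. Among the rises were Acsl1 (2.94 ± 0.05), the acyl-CoA synthetase of inflammatory macrophages, against a fall of Acsl3 (-3.50 ± 0.10), and Hilpda (2.30 ± 0.10), an inhibitor of lipid-droplet lipolysis. The lipid-linked nuclear receptors Pparg (-2.57 ± 0.11) and Rxra (-3.11 ± 0.09) fell.

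Genes of the cell cycle fell almost throughout. DNA replication genes fell in 30 of 35 and mitosis genes in 29 of 30, 24 and 28 of them under every scaling, with median log2 changes of -2.35 and -3.24. Rrm2, the regulated subunit of ribonucleotide reductase, was at 119 CPM (105 to 127) without and 4.52 CPM (3.31 to 5.55) with stimulation (log2 fold change -4.43 ± 0.08 SE, adjusted p = 7.3e-24). Anln, which codes for the contractile ring protein anillin, was at 66.7 CPM (65.5 to 81.7) without and 1.84 CPM (1.17 to 2.07) with stimulation (log2 fold change -4.71 ± 0.08 SE, adjusted p = 7.7e-26), and Cenpf (-4.54 ± 0.10), Bub1b (-4.43 ± 0.07) and Kif11 (-4.35 ± 0.07) fell by similar sizes. The exception was Tpx2, a spindle protein, at 79.1 CPM (71.1 to 88.4) without and 228 CPM (196 to 245) with stimulation (log2 fold change 1.47 ± 0.05 SE, adjusted p = 7.3e-09, scaling-dependent), a rise that was not called under total-read or quantile scaling. Among cell cycle brakes and D cyclins, 7 rose and 4 fell of 22. Ccnd2, which codes for cyclin D2, rose from 23.5 CPM (18.8 to 37.5) without to 1525 CPM (1396 to 1823) with stimulation (log2 fold change 5.94 ± 0.12 SE, adjusted p = 1.3e-21), the p53 targets Cdkn1a (2.52 ± 0.06) and Mdm2 (2.64 ± 0.05) rose, and Cdkn2c (-3.38 ± 0.07), Rbl2 (-2.29 ± 0.05) and Cdk4 (-1.94 ± 0.05) fell.

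Other groups showed mixed changes with large single members. Cell death and inflammasome genes rose in 15 and fell in 2 of 30. Fas, the death receptor (5.26 ± 0.07), Casp4, the sensor of cytosolic LPS (4.34 ± 0.06), and Nlrp3 (3.51 ± 0.04) rose, as did the caspase-8 inhibitor Cflar (4.13 ± 0.04). Iron and metal genes rose in 10 and fell in 3 of 19. Lcn2, which captures bacterial siderophores, was at 0.645 CPM (0.368 to 1.65) without and 276 CPM (219 to 335) with stimulation (log2 fold change 7.31 ± 0.13 SE, adjusted p = 3.3e-23), and Slc40a1, the iron exporter ferroportin, was at 59.7 CPM (51.3 to 64.1) without and 2.28 CPM (1.9 to 2.65) with stimulation (log2 fold change -4.19 ± 0.09 SE, adjusted p = 2.3e-23). Of the metalloreductases, Steap4 (4.80 ± 0.13) rose and Steap3 (-3.30 ± 0.05) fell. Sod2, the mitochondrial superoxide dismutase, rose by 4.79 ± 0.04, whereas catalase (Cat, -1.69 ± 0.06) and Gclc (-2.64 ± 0.10), the first enzyme of glutathione synthesis, fell.

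Receptors for purines, lipids and metabolites rose in 13 and fell in 7 of 26 genes, 12 and 5 under every scaling. The adenosine receptor Adora2a, which restrains inflammation, was at 0.243 CPM (0.0756 to 0.422) without and 128 CPM (119.6 to 163) with stimulation (log2 fold change 6.74 ± 0.08 SE, adjusted p = 2.3e-31). Adora2b (5.91 ± 0.08), the formyl peptide receptor Fpr2 (6.18 ± 0.06), the niacin and hydroxybutyrate receptor Hcar2 (5.97 ± 0.10) and the medium-chain fatty acid receptor Gpr84 (5.77 ± 0.10) rose. P2rx7, the ATP-gated channel that triggers the inflammasome, fell by 2.43, and Lpar5 (-3.97 ± 0.06), Lpar6 (-3.66 ± 0.16), S1pr1 (-2.39 ± 0.07) and the oxysterol receptor Gpr183 (-3.38 ± 0.13) fell. Gpr183 binds a product made from 25-hydroxycholesterol, the product of Ch25h, and the 2 genes moved in opposite directions.

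In adhesion, matrix and protease genes, 16 rose and 4 fell of 34, 13 and 2 under every scaling. Mmp13, a collagenase, was at 36.2 CPM (30.8 to 48.5) without and 11144 CPM (9003 to 11776) with stimulation (log2 fold change 8.17 ± 0.08 SE, adjusted p = 6.9e-30) and was among the 10 most read genes after stimulation. Plau, the urokinase that activates plasminogen, fell from 765 CPM (413 to 895) without to 23.8 CPM (12.9 to 25.5) with stimulation (log2 fold change -4.99 ± 0.17 SE, adjusted p = 9.4e-16), and every stimulated library was below every unstimulated one. Vcan, the matrix proteoglycan versican, rose by 7.24 ± 0.12, and Itgb3, a beta integrin, fell by 2.87.

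In the macrophage identity list, 4 rose and 3 fell of 22, against 2 and 6 under total-read and 2 and 10 under quantile scaling. Lyz2 (8452 to 10384 CPM without and 6235 to 8428 CPM with stimulation) and Mpeg1 (3832 to 4503 and 5899 to 7224 CPM), 2 macrophage markers, were high in both states. Csf1r, the CSF-1 receptor, was at 2267 CPM (2128 to 2328) without and 936 CPM (892 to 1019) with stimulation (log2 fold change -1.25 ± 0.04 SE, adjusted p = 4.1e-07, scaling-dependent). Among 13 genes of alternative activation, 5 rose and 4 fell, with Il4ra and Ccl22 up, as above, and Stab1, a clearance receptor, at -2.13 ± 0.06. Scavenger and efferocytosis receptors rose in 8 and fell in 4 of 19, with the oxidised LDL receptor Olr1 up by 5.38 ± 0.09 and Lrp1, a large endocytic receptor, down (-2.03 ± 0.09). Fc receptor genes rose for the activating Fcgr4 (4.85 ± 0.09) and Fcgr1 (2.86 ± 0.10) and for the inhibitory Fcgr2b (3.96 ± 0.07) alike. Of the complement genes, C3 rose by 4.03 ± 0.13, while the C5a receptors C5ar1 (-2.29 ± 0.05) and C5ar2 (-2.98 ± 0.10) fell.

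**Figure D5:**
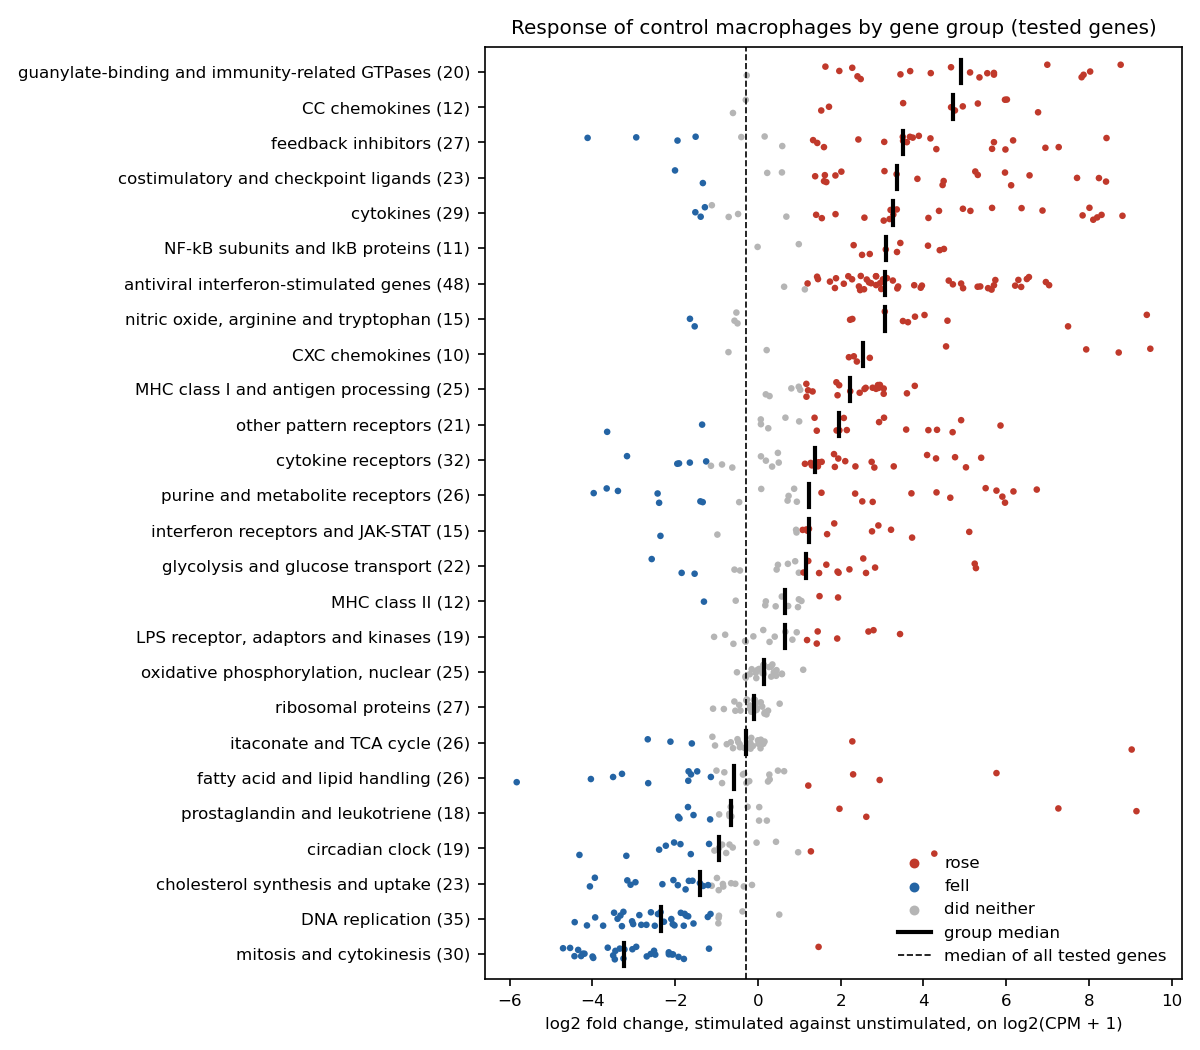
Log2 fold change (log2(CPM + 1) scale) of every tested member of 26 gene groups; each point is a gene, coloured by whether it rose, fell or did neither, black bars are group medians and the dashed line is the median over all 11710 tested genes (-0.30). GTPase, antiviral and cytokine genes lie mostly to the right, replication, mitosis and cholesterol genes to the left, and ribosomal and oxidative phosphorylation genes near 0.

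The groups less tied to immunity gave from no calls to many. Lysosomal genes gave 1 rise and 2 falls of 31, the rise being the protease-activating cathepsin Ctsc (3.38 ± 0.05), but the falls were 8 under total-read and 14 under quantile scaling. The 27 ribosomal protein genes gave 0 calls with treat, 0 at an unadjusted p under 0.05 and 1 with limma voom, but 4 falls under total-read and 3 under quantile scaling. Of 14 reference genes often used to scale PCR, 5 rose and 1 fell, beside 37.2% of all tested genes called in either direction. Under every scaling 1 rise and 1 fall held, and total-read scaling gave 1 rise and 3 falls. Actb, which codes for beta-actin, was at 3541 CPM (3423 to 3687) without and 13301 CPM (12986 to 14850) with stimulation (log2 fold change 1.94 ± 0.05 SE, adjusted p = 2.5e-16) and Gapdh at 5.91 CPM (5.21 to 6.13) without and 17.5 CPM (16.5 to 20.7) with stimulation (log2 fold change 1.48 ± 0.07 SE, adjusted p = 6.4e-07, scaling-dependent). Gapdh has many near-identical processed pseudogenes that can take up or exclude its reads, so its level here is uncertain, and the same holds for ribosomal protein genes. Circadian clock genes fell in 8 and rose in 2 of 19 (1 rose without mouse 3 or without mouse 4), with the repressors Bhlhe41 at -4.31 ± 0.10 and Nfil3 at 4.26 ± 0.07. Among histone and DNA modifiers, 6 rose and 10 fell of 38, with the H3K27 demethylase Kdm6b up by 4.07 ± 0.12 and the maintenance methyltransferase Dnmt1, which is also a replication gene, down by 3.74.

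Some genes were nearly silent in 1 state. In 126 genes every unstimulated library held at most 3 reads while the stimulated median reached at least 1 CPM, and 48 genes showed the reverse. Of the first kind, Mir155hg, the host transcript of miR-155, reached 37.5 CPM (27.8 to 44.5) and Csf3, which codes for the granulocyte growth factor G-CSF, 22.7 CPM (15 to 25.3). Fst, which codes for the activin inhibitor follistatin, reached 18.1 CPM (11.2 to 21.5) and Il19, a cytokine of the interleukin-10 family, 13.6 CPM (9.2 to 16). Of the reverse kind, Sox4, a developmental transcription factor, stood at 12.6 CPM (9.34 to 14.1) and Zbtb16, which codes for PLZF, at 7.2 CPM (6.95 to 8.36) without stimulation. At this depth 3 reads, the cutoff chosen here, amount to 0.0903 to 0.175 CPM, and lower levels rest on fewer reads than that. Among 160 long intergenic noncoding RNA genes, 29 rose (18.1%) and 33 fell (20.6%), shares close to those of the 11050 protein-coding genes (14.5% and 23%). Ptgs2os2, an antisense gene beside Ptgs2, rose by 4.09 ± 0.08, and since the strand setting of the counting is not given, reads of antisense pairs may be shared.

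Outside the gene groups, the most read rising genes were Lgals3bp (1.37 ± 0.08, scaling-dependent), a secreted scavenger-type glycoprotein, Msn (1.45 ± 0.03, scaling-dependent), which links the membrane to actin, Eif4g2 (1.87 ± 0.03, scaling-dependent), a translation initiation factor, and Rnf213 (2.75 ± 0.12), an interferon-induced ubiquitin ligase. Fgl2, a prothrombinase, rose by 7.42 ± 0.14, and the acute phase gene Saa3 by 6.94 ± 0.16. The most read falling genes included Slc37a2 (-3.16 ± 0.06), a sugar-phosphate exchanger, Pmp22 (-2.46 ± 0.06), a membrane protein best known from myelin, Adcy7 (-2.08 ± 0.05), which makes cyclic AMP, and Tubb5 (-1.38 ± 0.06, scaling-dependent), a beta-tubulin. Among the largest rises, Lipg, an endothelial-type lipase, stood at 1.69 CPM (1.11 to 3.03) without and 1789 CPM (1394 to 2060.2) with stimulation (log2 fold change 9.27 ± 0.17 SE, adjusted p = 4.4e-22) and Upp1, which frees uracil from uridine, at 1.14 CPM (0.869 to 1.71) without and 667 CPM (612 to 727) with stimulation (log2 fold change 8.23 ± 0.07 SE, adjusted p = 1.6e-33). Among the largest falls, Sesn1, a p53-induced regulator of mTORC1, was at 134 CPM (125 to 138) without and 1.66 CPM (1.4 to 2.45) with stimulation (log2 fold change -5.57 ± 0.08 SE, adjusted p = 1.7e-27), Pdxk, which makes pyridoxal phosphate, at 446 CPM (401 to 466) without and 9.13 CPM (7.74 to 10.1) with stimulation (log2 fold change -5.46 ± 0.07 SE, adjusted p = 3.7e-29) and Arrb1, a beta-arrestin, at 339.8 CPM (327 to 363) without and 7.74 CPM (5.21 to 10.7) with stimulation (log2 fold change -5.33 ± 0.13 SE, adjusted p = 2.8e-19).

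The size of the response varied most between mice for a few genes. Among called genes with at least 10 CPM as the mean of the 2 group means, the paired log2 difference ranged over the 6 mice from -2.97 to -0.66 for Egr2, from 2.74 to 4.17 for Thbs1, which codes for the matrix protein thrombospondin-1, from 4.07 to 5.85 for Slfn1, a growth-regulating Schlafen gene, and from 6.00 to 7.47 for Saa3. Even in these genes all 6 mice moved the same way.

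Compared with the response of diabetic macrophages, measured over the other 12 libraries, the control response differed in 3747 genes (32.0%) when tested against no difference. Within the 2 column sets, 2440 and 1642 genes differed. A difference of more than 2-fold was called in 1 gene, Ampd3 (0.00854%). Ampd3 codes for an AMP deaminase and stood at 80.2 CPM (69.9 to 85.4) without and 15 CPM (13.4 to 16.6) with stimulation in control macrophages, with log2 change -2.32 in control and -0.76 in diabetic macrophages, difference 1.56 ± 0.09 SE, adjusted p = 7.7e-12 in the test against no difference. The adjusted p of the genes that follow are from that test too, and not from the 2-fold test. Of the 8 genes with the smallest adjusted p in it, 5 are described here. Palld, which codes for an actin-associated protein, showed log2 change 0.64 in control and 1.63 in diabetic macrophages, difference 0.99 ± 0.09 SE, adjusted p = 3.5e-08. Sowahc showed log2 change 3.19 in control and 2.27 in diabetic macrophages, difference -0.92 ± 0.08 SE, adjusted p = 2.0e-08. St3gal1, a sialyltransferase, differed by -0.91 and Snn by -1.15, each as diabetic minus control log2 response.

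Markers of other cells were mostly low, beside the macrophage markers above. The 3 B cell markers summed to 12 to 24.8 CPM without and 2.99 to 4.55 CPM with stimulation, with 1 fall, Ighm (-2.47 ± 0.23), and 2 T and NK cell markers to 6.82 to 9.81 CPM without and 2.3 to 5.13 CPM with stimulation. The single mast cell and fibroblast markers in the table stayed at or under 1.17 and 0.701 CPM. The 3 neutrophil markers summed to 14.3 to 23.5 CPM without and 28.9 to 35 CPM with stimulation, and 1 rose, S100a8, a calcium-binding alarmin that macrophages also make (3.61 ± 0.07). Of 4 dendritic cell markers, which summed to 47.3 to 207 CPM without and 68 to 182 CPM with stimulation, 3 rose, among them Xcr1, at 0 reads in all 6 unstimulated libraries, while Itgax, most of the sum, had a change of -0.17 ± 0.31 and did not pass. Of 4 endothelial markers, which summed to 61.1 to 82 CPM without and 119.8 to 166 CPM with stimulation, Kdr (3.44 ± 0.11), Pecam1 (2.55 ± 0.10) and Cdh5 (1.36 ± 0.08, scaling-dependent) rose and Vwf (-1.91 ± 0.08) fell. Of 5 osteoclast markers, which summed to 75.8 to 243 CPM without and 46.8 to 111 CPM with stimulation, Acp5 rose (1.95 ± 0.11) and Dcstamp fell (-1.67 ± 0.25, scaling-dependent), a call lost without mouse 4 (adjusted p = 0.071) or mouse 6 (adjusted p = 0.060). Of 4 progenitor markers, which summed to 25.9 to 133 CPM without and 215 to 651 CPM with stimulation, Ly6a, also an interferon-induced gene, rose (3.11 ± 0.36). The part of other cells in the results was not tested.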

How the data were processed

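Messenger RNA of bone marrow-derived macrophages was sequenced after a TruSeq stranded preparation, per the labels' protocols. The material label reads genomic DNA, which goes against those protocols, and the values were read as RNA. The submitters' processing notes list STAR 2.5.3a, edgeR 3.16.5, R 3.3.3 and the builds mm10 and GRCm38. How reads were counted, and with which strand setting, is not stated in these sources. The authors deposited log2 CPM for 13568 genes, in which a value of -6.67 stands for 0 reads. Subtracting it on the linear scale gave CPM and whole reads, within 0.01 read. Floors in reads cover counting error alone, because PCR copies of a molecule cannot be told from separate molecules without identifiers.

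A gene needed 1 CPM or more in 6 or more libraries, which 11710 did, and was tested on log2(CPM + 1) with limma 3.58.1 in R 4.3.3, with a mean-dependent prior spread and the robust option, as 4 group means over 24 libraries with 20 residual degrees of freedom. The treat test against a log2 change of 1 was used, 2-sided, with Benjamini-Hochberg adjustment over all tested genes and a threshold of 0.05. For single genes compared with the diabetic response, adjusted p are from limma's moderated test against no difference, adjusted in the same way. Because deposited values are log2 and not counts, a count model was not used, and limma voom on the recovered reads was an alternative. The code was tested on simulated data. Other steps used Python 3.11.15, pandas 2.3.3, numpy 2.4.6 and matplotlib 3.10.9.

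The gene lists and the rule for named genes were chosen with earlier results of these data known. The rule took the 15 largest changes in each direction, up to 5 members of each list by size of change with every member called against its list, the 10 most read genes, the 10 most read genes silent in the other state, the 10 genes most variable between mice, the 8 smallest interaction p-values and the 10 most read called genes outside the lists. Some genes that the rule names are not reported here. Ifngr2, Mamdc2 and most genes of the neighbour runs fall outside it. Promoters are RefSeq sequences (GRCm38.p6), and gene positions are those of the deposited table.

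The replicate number was taken as the mouse, since the series' design text says that each sample was split between the states. The 2 libraries of a mouse deviated together from their group means with r between 0.037 and 0.402 (mean 0.19), and r was above 0.1 for 4 of 6 mice. Replicates had r = 0.994 to 0.998, and none was a repeat of another, as chi-square over degrees of freedom was 3.19 or more for each pair. The closing section gives the effect of changing the pseudocount, the filter, the scaling, the weights, the fit, the mouse block and the libraries used.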

Additional observations from a re-analysis of the deposited data

Results flagged for a closer look

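In 61 of 497 groups of 6 values examined (12.3%), over 247 genes of the text and the interferon-stimulated list, 1 library lay farther from the nearest other than Dixon's 95% limit allows, where chance gives about 1 in 20. Mouse 3 was that library in 48 of them. The mean log2 level of the antiviral interferon-stimulated genes was 6.60 in its unstimulated library (next 6.03), and their rise was 3.28 (next 3.72). In the unstimulated library of mouse 3, antiviral and GTPase genes were highest, with Cmpk2 at 80.4 CPM (next 53.3), Ifi47 at 59.97 CPM (next 39.6), Ifih1 at 94.4 CPM (next 69.2) and Ifit2 at 209 CPM (next 104). Of the same lists, it also held Iigp1 at 10.5 CPM (next 4.56), Irgm1 at 164 CPM (next 116), Mx1 at 52.8 CPM (next 30.5) and Oasl1 at 48.4 CPM (next 24.2). Further high values there were Rsad2 at 137 CPM (next 69), Slfn1 at 19 CPM (next 7.63), Sp100 at 216 CPM (next 163) and Sp110 at 52.1 CPM (next 36.6). To these came Tgtp2 at 5.13 CPM (next 2.53). Outside these lists, its highest values were C3 at 299 CPM (next 185), Ccl5 at 172 CPM (next 87.9), Ccnd2 at 37.5 CPM (next 24.9) and Il6ra at 107 CPM (next 96.1). It also held the highest Irf1 at 66.8 CPM (next 59), Irf7 at 740.3 CPM (next 404), Lcn2 at 1.65 CPM (next 0.805) and Lgals3bp at 1522 CPM (next 1146). Other genes with their top value in it were Ly6a at 131 CPM (next 33.9), Myd88 at 97.2 CPM (next 89), Nfkbiz at 37 CPM (next 32) and Rnf213 at 1372 CPM (next 999.7). The same held for Setdb2 at 19 CPM (next 15.1), Stat2 at 280 CPM (next 198), Steap3 at 97.9 CPM (next 91) and Tap1 at 144 CPM (next 103). Last came Tlr3 at 28.3 CPM (next 21), Trim12c at 29.7 CPM (next 24.8) and Zbp1 at 68.6 CPM (next 36.8). Lower than in the other 5 mice were, in the same library, Aco1 (65.8 CPM, next 70.3), Fas (1.74 CPM, next 2.33), Fasn (153 CPM, next 208), Myc (28 CPM, next 34.9), Slc2a1 (47.8 CPM, next 56.8), Snn (1.52 CPM, next 2.29). After stimulation, mouse 3 was highest in Adora2a at 163 CPM (next 130.2), Kdr at 138 CPM (next 105), Ly6a at 649 CPM (next 349) and Mxd1 at 1295 CPM (next 999). It was also highest in Pparg at 12.4 CPM (next 8.06), Ppp1r15a at 117 CPM (next 86.8), Slc15a3 at 3034 CPM (next 2807) and Stat3 at 2044 CPM (next 1707).

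In the other mice, single libraries stood apart in 13 groups. Acsl1 was highest in the stimulated library of mouse 1, at 591 CPM (next 489). C5ar2 was highest in the stimulated library of mouse 1, at 2.82 CPM (next 1.81). Cx3cr1 was highest in the stimulated library of mouse 1, at 4.79 CPM (next 2.41). Cxcl11 was highest in the unstimulated library of mouse 4, at 0.575 CPM (next 0.276). Dnmt1 was highest in the unstimulated library of mouse 6, at 319.5 CPM (next 301). Fcgr2b was lowest in the stimulated library of mouse 1, at 570.1 CPM (next 661). Il6st was lowest in the unstimulated library of mouse 6, at 191 CPM (next 209). Lyz2 was highest in the stimulated library of mouse 6, at 8428 CPM (next 7028). Nos2 was highest in the stimulated library of mouse 1, at 14748 CPM (next 12842). Ppp1r15a was highest in the unstimulated library of mouse 2, at 14.6 CPM (next 13.3). Ptgs2 was highest in the stimulated library of mouse 1, at 6139 CPM (next 5205). Slc7a2 was highest in the stimulated library of mouse 1, at 1158 CPM (next 888). Xcr1 was highest in the stimulated library of mouse 1, at 4.79 CPM (next 2.92).

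Differences between the diabetic and the control response, as diabetic minus control log2 change, were Ampd3 1.56, Palld 0.99, Snn -1.15, Sowahc -0.92, St3gal1 -0.91. These are 5 of the 8 genes with the smallest adjusted p, and 126 of 247 genes of the text passed the same test against no difference, beside 32.0% of all tested genes.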

How the results depend on the processing

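Scaling by total reads gave 1099 rises and 4865 falls in place of 1717 and 2639, and a pseudocount of 5 gave 1608 falls. A threshold at log2 of 2 gave 800 rises and 747 falls, and no fold threshold 4081 and 6607, which follows from the thresholds themselves. The count of genes whose response differed between diabetic and control macrophages (3747) was 2440 and 1642 within the 2 column sets, which hold 12 libraries each. Leaving out 1 mouse gave 1693 to 1707 rises, 2594 to 2616 falls, 10561 to 10602 genes changed against no change and 3369 to 3746 differences from the diabetic response. With the mouse as a replicate block the counts were 1719 rises, 2656 falls, 10718 changes and 3925 differences, 1709 of the rises and 2626 of the falls being shared, and the block changed the call of no gene named in the text. An added fit, chosen after seeing the data, of the control libraries alone with the mouse block gave 1720 rises and 2636 falls. Over 247 genes of the text, 5548 of 5675 values kept their side of the threshold, 119 no longer passed and 8 newly passed. Of the 119, 52 were under the log2 of 2 threshold. A sign change of a called gene was seen in 0, and sign changes of genes that were not called were not counted. Within the first column set 2 calls and within the second 8 calls were lost, among Cdh5, H2-Ab1, Mamdc2, Pdgfb, Vegfa, Zfp36l2, Tnfsf14 and Dcstamp. Some of these genes thus lost their call in both column sets. Leaving out 1 mouse cost the calls of Tnfsf14 and Dcstamp. The causes were not tested. Levels under 0.0903 to 0.175 CPM rest on fewer than 3 reads and are uncertain.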

Other observations

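Some groups not described above changed in part, and their calls are read beside the 14.7% that rose and the 22.5% that fell over all tested genes. Of the genes of the unfolded protein response and integrated stress, 2 rose and 6 fell of 20, 1 and 1 of them under every scaling. Eif2ak3, which codes for the stress kinase PERK, was at 34.4 CPM (33 to 36) without and 3.67 CPM (2.79 to 5.16) with stimulation (log2 fold change -2.90 ± 0.08 SE, adjusted p = 2.3e-19), and Ppp1r15a, which codes for the GADD34 subunit that reverses its effect, was at 13.2 CPM (12.5 to 14.6) without and 79.9 CPM (72.5 to 117) with stimulation (log2 fold change 2.57 ± 0.08 SE, adjusted p = 2.1e-16). The groups did not overlap in either gene. Among autophagy genes, 2 rose and 6 fell of 20, 2 and 3 of them under every scaling. The cargo receptors Tax1bp1 (3.08 ± 0.04) and Optn (3.01 ± 0.07) were up, and the kinase Ulk2 (-2.18 ± 0.05) and the conjugation enzyme Atg7 (-1.64 ± 0.04) were down. Genes of fatty acid oxidation gave 1 rise and 4 falls of 21, but 0 and 1 under every scaling and 0 and 9 under total-read scaling. The fall of Acadm (-1.90 ± 0.04), which codes for the medium-chain acyl-CoA dehydrogenase, was the largest. Of the hypoxia-response genes, 5 rose and 3 fell of 18, 5 and 1 of them under every scaling. Bnip3 (2.53 ± 0.06) was up and its relative Bnip3l (-1.26 ± 0.06, scaling-dependent) lower, and Ndrg1 (2.34 ± 0.09) and Ddit4 (2.04 ± 0.21) were up. In cholesterol efflux and its nuclear receptors, 1 rose and 4 fell of 14, 1 and 4 under every scaling, and the lysosomal cholesterol exporter Npc1 was among the falls (-1.73 ± 0.04).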
